A study of Danio rerio with 6 samples.

Results

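The genes described here are *cilp* and the genes of the fibrillin microfibril and its partners, measured in whole zebrafish hearts. They were chosen by symbol, as *cilp*, *adamtsl3*, *adamtsl2*, *fbn1*, *fbn2b*, *mfap2*, *mfap5*, *ltbp1*, *ltbp3* and *efemp2a*. The 10 symbols matched 12 of the 31701 genes in the table, because *fbn2b* and *ltbp1* each stand in 2 rows, and *ltbp3* is written LTBP3 there. The choice was made with the difference between mutant and wild-type (WT) hearts known, in particular that of *cilp*. The members' differences are therefore given as values and not as tests.

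RNA came from 3 pools of hearts labelled mutant and 3 pools labelled WT, their siblings, described as biological replicates, and each pool gave 1 sequencing library. Each pool held 23 hearts dissected by hand at 57 to 59 hours post fertilization. The title of the series names Wwtr1 (Taz), a coactivator at the end of the Hippo pathway; the labels give no allele, strain or treatment. Values are normalised read counts per gene as the authors deposited them, scaled between libraries and rounded. Transcripts of *wwtr1* stood at 128, 151 and 100 in mutant and at 362, 416 and 471 in WT replicates 1 to 3 (log2 difference −1.72, SE 0.155; limma with Benjamini-Hochberg adjustment, adjusted p = 0.000251). Deposited values summed to between 21068538 and 21968397 in mutant libraries and between 19187058 and 25227868 in WT libraries. Features annotated as ribosomal RNA took 40.4% to 43.9% of these totals. The 8 heart muscle genes fixed as markers, such as *myl7*, summed to 185599 to 192736 in mutant and 181139 to 212020 in WT libraries, and none was at 0.

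Fibrillins are large secreted glycoproteins that assemble end to end into microfibrils, thin threads of the extracellular matrix that also serve as a scaffold for elastin. Small microfibril-associated glycoproteins bind along the thread, and latent TGF-beta binding proteins anchor the inactive growth factor TGF-beta to it. Cilp, the cartilage intermediate layer protein, is a secreted matrix protein named for its place in articular cartilage. In mammals it binds TGF-beta and is made by cardiac fibroblasts in injured hearts. In a whole heart, a lower level can mean fewer cells of a type or less RNA per cell, which cannot be told apart.

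*cilp* (ENSDARG00000053362, chromosome 7, 31160990 to 31170270, minus strand, GRCz10 assembly) stood at 1554, 1628 and 1472 in mutant hearts, against 860, 719 and 746 in WT hearts. Every mutant pool lay above every WT pool, with a gap between 1472 in the lowest mutant and 860 in the highest WT library. The means were 1551 ± 78.0 in mutant and 775 ± 74.8 in WT hearts (SD, n = 3 each), a ratio of 2.0. On the log2(value + 1) scale the difference was 1.00 (SE 0.0929), and it lay between 0.95 and 1.08 with any 1 library left out. Replicates varied little around these means, with a coefficient of variation of 5.03% in mutant and 9.66% in WT hearts.

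*cilp* was the member that passed the test over all genes, at an adjusted p under 0.05, and this call is what it was chosen for. In all, 1 of the 12 member rows was called, where 0.037% of the 18901 genes tested were called in either direction. Without WT replicate 2, 43 genes were called over the whole table, and without WT replicate 1, 11 were, with 1 member row among them each time. With groups that do not overlap as the measure, 3 rows lay higher in mutant hearts and 1 lower, where 5.57% and 5.53% of the tested genes did so. Both shares stand beside the members' counts as background only, since the members were picked on this contrast.

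**Figure D1:**
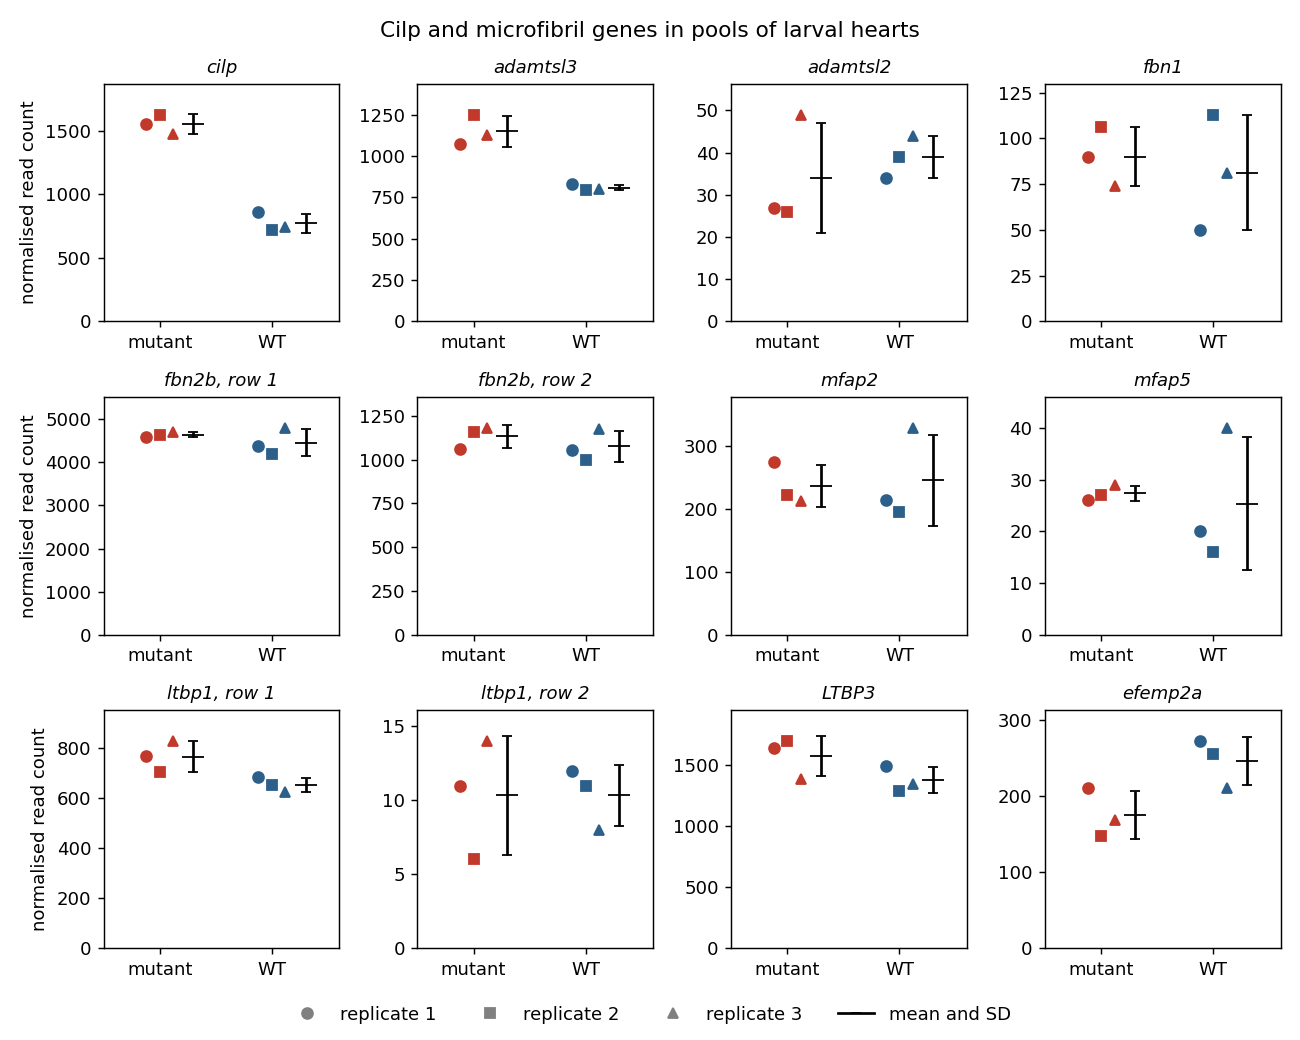
Normalised read counts (vertical axes, from 0) of the 12 rows in 3 mutant pools (red, left) and 3 WT pools (blue, right), with the mean and SD in black; symbols give the replicate number. Mutant and WT pools are fully apart in *cilp*, *adamtsl3*, the longer *ltbp1* row and *efemp2a*, and in *mfap2* and *mfap5* WT replicate 3 is the highest library.

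The Adamts-like genes encode secreted glycoproteins that resemble the ADAMTS proteases without their catalytic domain. *adamtsl3* (ENSDARG00000027903, chromosome 7, 12136905 to 12536290, minus strand) stood at 1071, 1251 and 1128 in mutant hearts, against 830, 798 and 803 in WT hearts. The groups were apart, and the coefficient of variation was 2.12% among WT pools, against 8.0% among mutant pools. Its log2 difference was 0.50 (SE 0.0889), a ratio of means of 1.42. A gene annotated as 5S_rRNA overlaps *adamtsl3*, so reads there may be mixed. *adamtsl2* (ENSDARG00000074033, chromosome 5, 65201775 to 65242421), whose human counterpart binds LTBP1 and is mutated in geleophysic dysplasia, had low counts. It stood at 27, 26 and 49 in mutant hearts, against 34, 39 and 44 in WT hearts. The groups overlapped because mutant replicate 3 held the highest value of all 6; the log2 difference was −0.25 (SE 0.296), and it ranged from −0.53 without that library to −0.089 without mutant replicate 2.

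Both *fbn2b* rows were nearly level between genotypes. The more highly counted *fbn2b* row (ENSDARG00000098237, chromosome 22, 4071519 to 4116819) stood at 4592, 4626 and 4709 in mutant hearts, against 4382, 4189 and 4796 in WT hearts (log2 difference 0.061, SE 0.0831). The other *fbn2b* row (ENSDARG00000087398, chromosome 22, 4210090 to 4264863) stood at 1059, 1159 and 1180 in mutant hearts, against 1055, 998 and 1172 in WT hearts (log2 difference 0.077, SE 0.0913). In the first of these rows the WT range enclosed all mutant pools, and in the second the groups overlapped.

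These 2 rows lie on the same strand, 93.27 kb apart with 4 annotated genes between them. The smaller row held 23.1%, 25.1% and 25.1% of the larger row's value in mutant replicates 1 to 3 and 24.1%, 23.8% and 24.4% in WT replicates 1 to 3, so their proportion hardly moved between libraries. The gene name table calls the larger row FBN3, and RefSeq lists 1 gene named *fbn2b*, so which fibrillin each row stands for is uncertain, and reads of similar stretches may be split between them. Fibrillin-2 is known in zebrafish from the notochord and fin fold.

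*fbn1* (ENSDARG00000105333, chromosome 18, 5503737 to 5528053), whose human counterpart is mutated in Marfan syndrome, stood at 90, 106 and 74 in mutant hearts, against 50, 113 and 81 in WT hearts. WT replicates 1 and 2 held the lowest and the highest value of all, so the mutant pools lay inside the WT range. The log2 difference of 0.21 (SE 0.256) became −0.10 without WT replicate 1 and 0.48 without WT replicate 2.

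The microfibril-associated glycoproteins of both kinds were measured. *mfap2* (ENSDARG00000059367, chromosome 22, 71558 to 75573) stood at 275, 222 and 213 in mutant hearts, against 214, 195 and 329 in WT hearts. *mfap5* (ENSDARG00000090560, chromosome 16, 12779696 to 12798837) stood at 26, 27 and 29 in mutant hearts, against 20, 16 and 40 in WT hearts. In both genes WT replicate 3 was the highest of the 6 libraries and WT replicate 2 the lowest, and the mutant pools lay between.

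The coefficient of variation of *mfap5* was 5.59% among mutant and 50.8% among WT pools, and that of *mfap2* 14.2% among mutant and 29.5% among WT pools. The log2 difference was −0.026 (SE 0.175) for *mfap2* and 0.21 (SE 0.354) for *mfap5*; without WT replicate 3 they became 0.20 and 0.58, and without WT replicate 2 they became −0.17 and −0.052. Without mutant replicate 2 or 3, *mfap2* also lay above 0, at 0.015 and 0.045. The 5 epicardial markers summed to 520 to 671 in mutant libraries, and to 718, 681 and 876 in WT replicates 1 to 3, highest in WT replicate 3. That excess came from *aldh1a2*: the other 4 markers summed to 274 to 393 in mutant libraries and to 439, 464 and 457 in WT replicates 1 to 3. The sum of the 8 fibroblast and mesenchyme markers in that library, 14349, was the lowest of the 6. Among single markers, chosen after their values were seen, *pdgfra* stood at 1661 and *aldh1a2* at 419 in that library, above the other 5 libraries, where they reached at most 1191 and 279. The part of these markers in the *mfap2* and *mfap5* values was not tested.

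Latent TGF-beta binding proteins hold the growth factor in the matrix until it is released. The longer *ltbp1* row (ENSDARG00000056922, chromosome 17, 22936591 to 23097214) stood at 767, 705 and 828 in mutant hearts, against 683, 652 and 626 in WT hearts. All mutant pools lay above all WT pools, though the lowest mutant value, 705, was close to the highest WT value, 683. The log2 difference was 0.23 (SE 0.0941), between 0.17 and 0.29 with any 1 library left out. The shorter *ltbp1* row (ENSDARG00000097768, 23079303 to 23098016) shares 17.912 kb and its strand with the longer one and held 6 to 14 in mutant and 8 to 12 in WT hearts, so reads in the shared stretch cannot be told apart.

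LTBP3 (ENSDARG00000035682, chromosome 5, 36917524 to 36985323), which marks second heart field cells at the arterial pole in zebrafish, stood at 1638, 1691 and 1381 in mutant hearts, against 1488, 1284 and 1345 in WT hearts. Mutant replicate 3 lay among the WT pools while the other mutant pools were above them. Its log2 difference was 0.19 (SE 0.0973).

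*efemp2a* (ENSDARG00000094324, chromosome 14, 30329348 to 30363761) encodes fibulin-4, which in mice is needed to assemble elastic fibres. It was the only member row with every mutant pool below every WT pool. Its values were 210, 148 and 168 in mutant hearts, against 272, 255 and 211 in WT hearts, so that 210 in mutant replicate 1 and 211 in WT replicate 3 nearly met. The log2 difference was −0.49 (SE 0.151), between −0.63 and −0.38 with any 1 library left out. Sums of the 5 epicardial markers were also lower in mutant hearts, at 520 to 671 in mutant and 681 to 876 in WT libraries. Of these 5, 2 had groups apart, below WT, where 5.53% of all tested genes did so, and the others overlapped. The part of these markers in the *efemp2a* difference was not tested. The other *efemp2* gene measured, *efemp2b*, had overlapping groups. It stood at 91, 91 and 58 in mutant hearts, against 89, 84 and 84 in WT hearts (log2 difference −0.13, SE 0.203).

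Because *cilp* is known from cartilage, and cartilage beside the heart could enter a dissection, the levels of 14 cartilage genes were set beside it. They summed to 11338, 9708 and 7916 in mutant libraries, against 13451, 8589 and 7701 in WT libraries, so the groups overlapped fully. None of the 14 genes had groups apart, where 5.57% of all tested genes lay above WT and 5.53% below. The highest of them, the collagen gene *col2a1a*, stood at 4725, 3965 and 3233 in mutant and at 5796, 3616 and 3119 in WT libraries. One cartilage marker, *ucmaa*, was at 0 in some libraries, and none was at 0 in all. Among the WT libraries, replicate 1 was highest for both the cartilage sum and *cilp*. Among the mutant libraries, the cartilage sum was highest in replicate 1 and *cilp* in replicate 2. The part of cartilage in the *cilp* values was not tested.

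The summed level of 6 endocardial markers was higher in mutant hearts, at 10826 to 11627 in mutant and 8974 to 10165 in WT libraries, a ratio of means of 1.18 beside 2.0 for *cilp*. The most highly counted of them, *cdh5*, averaged 5571 in mutant and 4492 in WT hearts and made up most of that difference. Of the 6 markers, 4 had a higher mean in mutant hearts, while *tek* (210 in mutant, 225 in WT hearts) and *kdrl* (804 in mutant, 819 in WT hearts) were slightly lower. In 3 of the 6, every mutant value lay above every WT value, where 5.57% of all tested genes did so. The 8 fibroblast and mesenchyme markers summed to 17225 to 18037 in mutant and 14349 to 17569 in WT libraries. Of these 8, 1 had groups apart, above WT, where 5.57% of all tested genes did so. Sums of the outflow smooth muscle and skeletal muscle lists overlapped, at 3570 to 3899 and 24862 to 34094 in mutant and at 3665 to 4077 and 24002 to 41039 in WT libraries. Of the 7 outflow rows, 1 lay wholly above WT and 1 wholly below, where 5.57% and 5.53% of all tested genes did so. None of the 8 skeletal muscle rows had groups apart. The part of the endocardial and mesenchymal markers in the *cilp* difference was not tested.

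**Figure D2:**
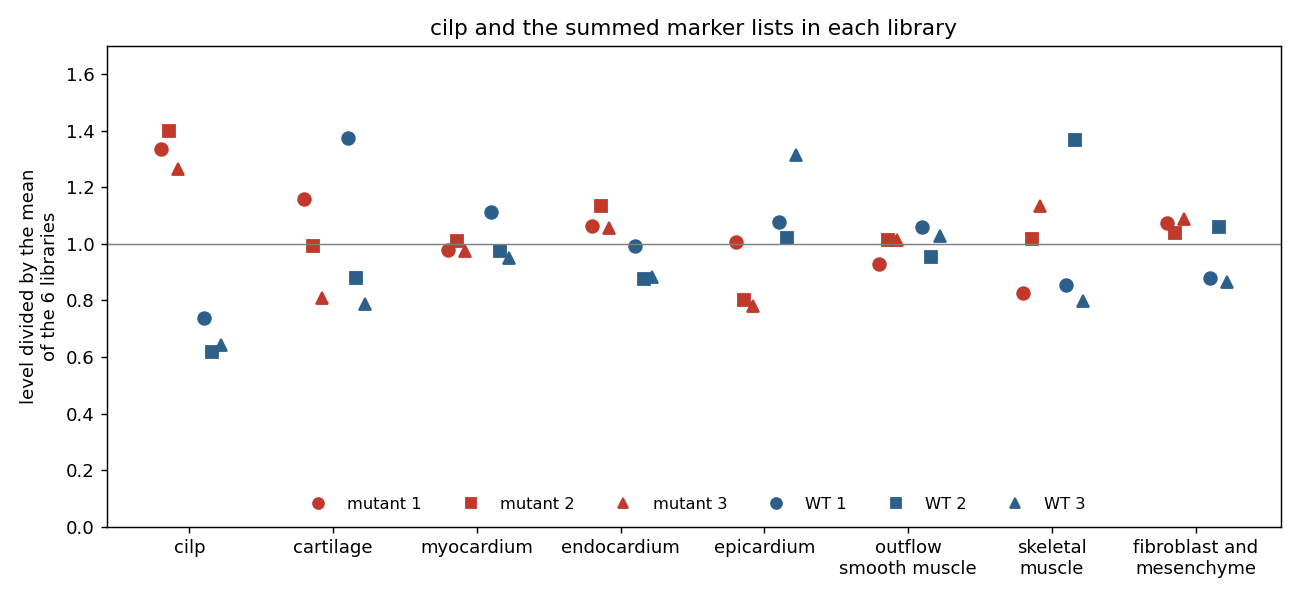
Level of *cilp* and of 7 summed marker lists in each library, divided by the mean of the 6 libraries (vertical axis, no unit); mutant pools are red and left, WT pools blue and right. For *cilp* the mutant pools stand between 1.27 and 1.4 and the WT pools between 0.62 and 0.74. The cartilage sums of the groups overlap, while the endocardial sums of mutant pools lie above WT and the epicardial sums below WT.

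The neighbours of *cilp* on chromosome 7 were examined because reads can run over between genes. The translation factor gene *eif3jb* lies on the opposite strand and ends 36 bases from the end of *cilp*. It stood at 279, 272 and 233 in mutant hearts, against 229, 230 and 226 in WT hearts (log2 difference 0.19, SE 0.118, limma adjusted p = 0.846). The groups were apart by a few counts, and the gene did not pass the test. On the other side, 12580 bases away, the long noncoding gene si:dkey-174e24.2 was at 0 in all libraries except WT replicate 1, where it had 2. The sources used here do not say how strand entered the counting, so reads across the junction of *cilp* and *eif3jb* cannot be assigned with certainty.

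Among the members, *mfap2* and both *fbn2b* rows lie on chromosome 22, which also carries *wwtr1*. They sit between 33.8 and 38.0 Mb from it, and none of these rows had groups apart.

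Other genes of microfibrils and elastic fibres were taken from a list of 53 symbols, of which 43 matched the table in 45 rows and 37 rows were tested. None passed over all genes tested by limma, while 6 had an unadjusted p under 0.05, 16.2% of the 37, where 6.6% of all tested genes did; 4 of these lay above 0 and 2, *emilin1a* and *adamts6*, below. That count of 6 was 3 without mutant replicate 3 and between 3 and 8 with any 1 library left out. The median log2 difference of the list was 0.068 beside −0.0029 over all genes tested, with 24 rows above 0 and 13 below. Of all genes tested, 9351 lay above 0 and 9550 below. In 6 rows every mutant value lay above every WT value and in 0 rows below, where 5.57% and 5.53% of all tested genes did so. These 6, named after their values were seen, were *fbln2*, *hmcn2*, *loxl2a*, *loxl3b*, *tgfb1a* and *fn1a*. The 0 rows below rest on a tie in *emilin1a*, at 297, 275 and 222 in mutant hearts and 387, 297 and 371 in WT hearts. Its log2 difference was −0.41 (SE 0.137, limma adjusted p = 0.562).

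**Figure D3:**
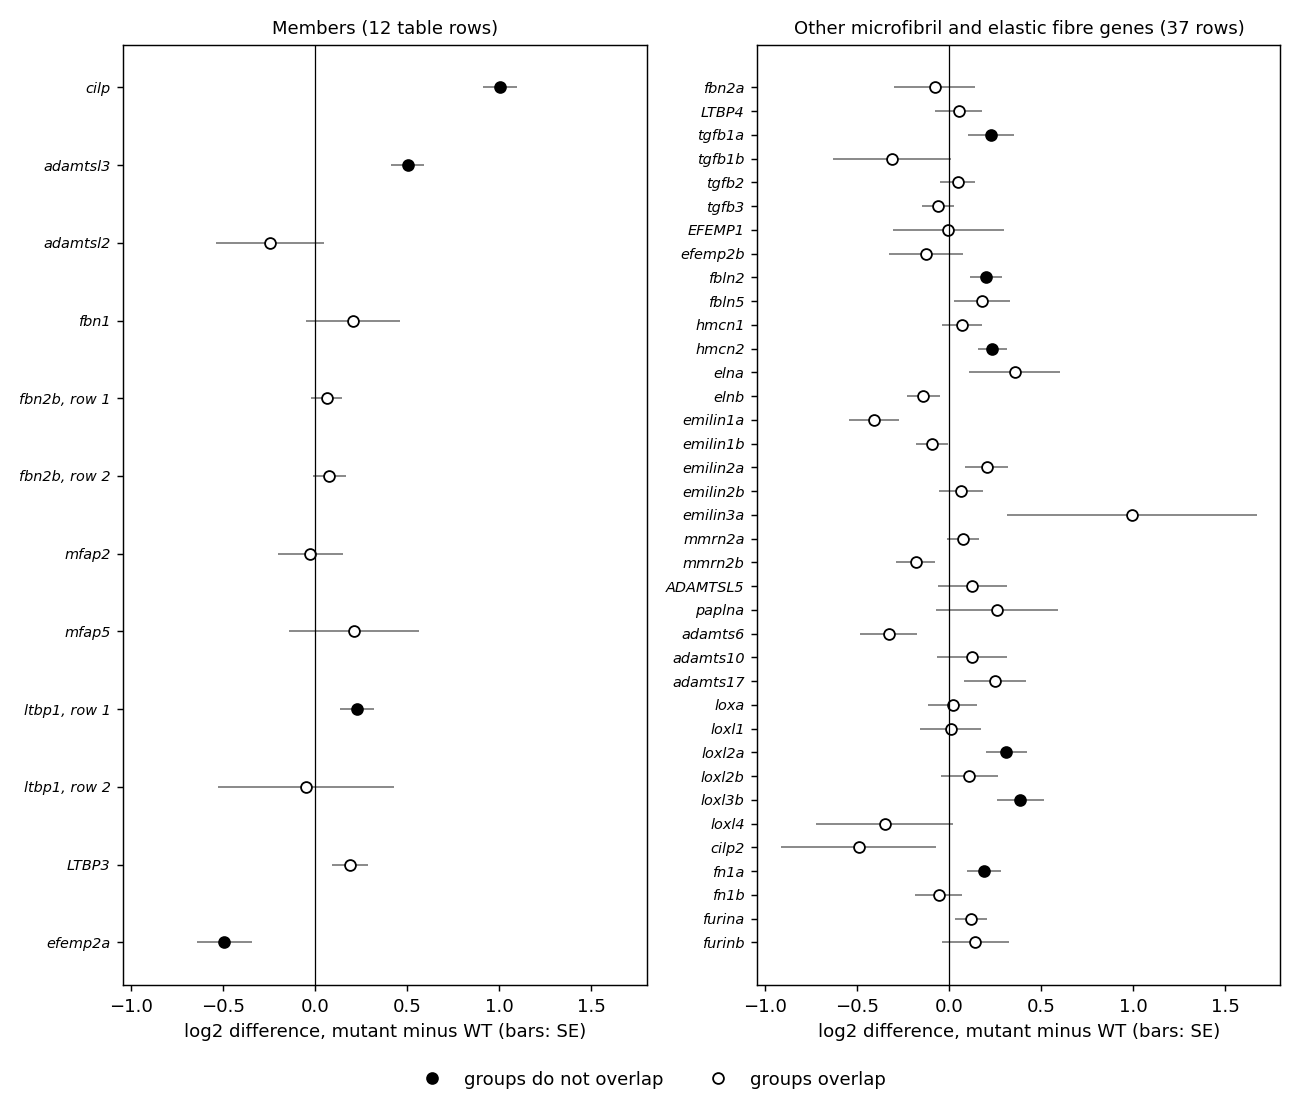
Log2 difference of mutant minus WT (horizontal axis, bars are SE) for the 12 member rows (left) and 37 other tested rows (right), with filled points where the groups do not overlap. *cilp* stands farthest to the right among members at 1.00, and the 6 filled points of the other genes all lie above 0.

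In each class of that list the most highly counted gene was read in full. Among fibulins this was *hmcn2*, which encodes the fibulin relative hemicentin-2, at 2160, 2239 and 2157 in mutant hearts, against 1795, 1855 and 1922 in WT hearts. Its groups were apart, with a log2 difference of 0.23 (SE 0.0787, limma adjusted p = 0.562). Another *hmcn2* row, at 0 in every library, lies within it on the same strand, so reads in the shared stretch cannot be told apart. Among the lysyl oxidases, enzymes that crosslink collagen and elastin, it was *loxl2a*, at 369, 374 and 378 in mutant hearts, against 340, 297 and 271 in WT hearts (log2 difference 0.31, SE 0.112, limma adjusted p = 0.595). Fibronectin *fn1a*, a matrix protein on which microfibrils are laid down, stood at 5322, 5467 and 5764 in mutant hearts, against 4845, 4397 and 5313 in WT hearts (log2 difference 0.19, SE 0.0899, limma adjusted p = 0.755). All 3 had groups apart, and the gap was narrowest in *fn1a*, between 5322 in mutant and 5313 in WT hearts.

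The leading genes of the remaining classes had overlapping groups. The elastin gene *elnb* averaged 1972 ± 149 in mutant and 2173 ± 162 in WT hearts, and *emilin1b*, which encodes a glycoprotein between elastin and microfibrils, 1569 ± 102 in mutant and 1674 ± 90.4 in WT hearts (SD, n = 3 each). The ligand gene *tgfb3* averaged 1222 ± 91.9 in mutant and 1274 ± 63.2 in WT hearts, and LTBP4 530.0 ± 76.7 in mutant and 512 ± 76.5 in WT hearts. ADAMTSL5 averaged 198 ± 15.5 in mutant and 188 ± 64.4 in WT hearts, and *fbn2a* 83.7 ± 18.5 in mutant and 89.0 ± 24.2 in WT hearts. The nearest relative of *cilp* in the list, *cilp2*, had 9, 9 and 13 in mutant hearts, against 12, 19 and 14 in WT hearts. It was thus scarce in both groups, lay lower on average in mutant hearts, and did not pass (log2 difference −0.49, SE 0.421, limma adjusted p = 0.910).

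Genes with a pattern most like that of *cilp* were sought among 11607 tested genes that were not members and had a mean of at least 50. Likeness was the root mean square difference between centred log2 profiles over the 6 libraries, where 0 means the same profile. The 5 nearest were *alpi.1* (0.110), *manea* (0.174), *ppp2r3c* (0.177), *bsnb* (0.191) and BX537350.1 (0.191). The alkaline phosphatase gene *alpi.1* stood at 578, 562 and 598 in mutant hearts, against 316, 295 and 322 in WT hearts, and it overlaps si:ch211-262h13.7, so its reads may be mixed. Likewise, *ppp2r3c* overlaps si:dkeyp-33b5.4 and *fam177a1*, so its reads may also be mixed. Of the 5, *alpi.1* and BX537350.1 lie on the chromosome of *wwtr1*, 0.615 and 7.01 Mb from it. Over all genes tested, *alpi.1* was called higher in mutant hearts (limma adjusted p = 0.00128). The others were not called (limma adjusted p between 0.230 and 0.411). All 5 were selected for likeness to *cilp*, so these results carry no separate weight.

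Among the other members, the profile of *adamtsl3* was the nearest to *cilp*, at 0.263, with 22 of the 11607 genes nearer. For the longer *ltbp1* row it was 0.407 with 708 nearer, and for LTBP3 0.410 with 745 nearer. The profile of *efemp2a* was the farthest, at 0.772, with 11279 of the genes nearer. These ranks describe the 6 libraries that chose the genes and carry no test.

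**Figure D4:**
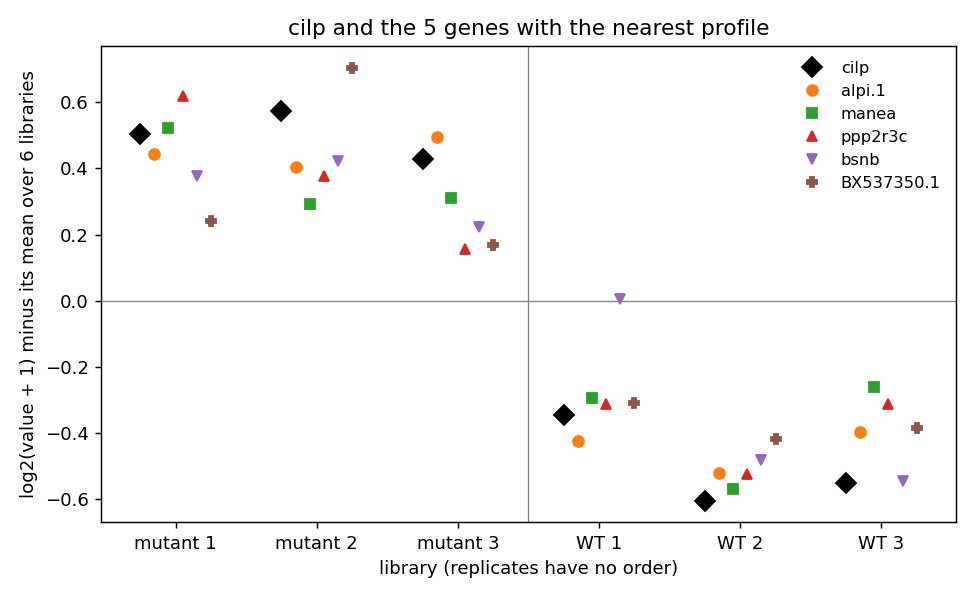
Log2(value + 1) of *cilp* and of the 5 genes nearest to it, each minus its own mean over the 6 libraries (vertical axis), by library (horizontal axis, mutant left and WT right). All 6 genes stand above 0 in every mutant library, and in WT libraries they stand below 0 except *bsnb*, which is near 0 in WT replicate 1. The 5 genes were selected for this likeness in the same libraries, so the shared split carries no test.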

How the data were processed

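Per the labels' protocols, total RNA (miRNeasy kit, Qiagen) was used at 6.5 ng per library with Clontech's Pico Input Mammalian kit, and 75 nt single reads were sequenced to at least 30 M per library. Per the submitters' processing notes, STAR 2.4.0a and featureCounts 1.4.5-p1 were used with the GRCz10 (danRer10) assembly. The values the authors deposited are a score: read counts scaled between libraries and rounded. This was read from the values. Of all whole numbers up to 100, 7 are missing from mutant replicate 2, 5 from mutant replicate 3 and 12 from WT replicate 2, as after scaling by a factor above 1. A count test was therefore not used. The sources used here give neither raw depth nor the scaling method, so no counting intervals are printed.

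Values were analysed as log2(value + 1), which understates changes of low genes. The 18901 genes that reached 10 in 3 or more of the 6 libraries were tested, and all 12 member rows were among them. Mutant and WT libraries were compared with limma 3.58.1 (R 4.3.3), with p-values adjusted over all tested genes by the Benjamini-Hochberg method and a variance trend; SE are limma's moderated errors. On simulated data for this comparison, 50% of 50 genes changed 1.5-fold and 94% of 50 changed 2-fold were recovered, with 10 unchanged genes called in the same run; with no gene changed, 0 were called. The run with changed genes also held 50 changed 3-fold and 50 changed 4-fold, while 7 genes were called in these data. The adjustment is more lenient when more genes change, so these shares can overstate recovery in these data. The changed genes were drawn from those with a mean of at least 50, so these shares do not cover lower genes. The spread between simulated replicates was set beforehand and not estimated from these libraries. Members, lists and tests were chosen with earlier results of these data known. The text names every member, the most highly counted tested gene of each class of the pathway list, its called genes, the 5 profiles nearest *cilp*, and its neighbours. In addition, *efemp2b* was named beside *efemp2a* after its values were seen. Of the table's rows, 26237 were in the gene name table, 8 member rows among them. Exon lengths were not used here, so levels are compared within a gene only. Alternatives were other pseudocounts (0.5 and 5), value filters (none, or a mean of 50), TMM factors (own implementation), quantile normalisation, array weights, a replicate block and each library left out.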

Additional observations from a re-analysis of the deposited data

How the results depend on the processing

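The differences of *cilp*, *adamtsl3*, *efemp2a* and the longer *ltbp1* row kept their direction under all 14 alternatives run. Their groups are apart, so a left-out library, another pseudocount or value filter, array weights or the replicate block could not have reversed them. The TMM factors, between 0.997 and 1.004, hardly changed the values. LTBP3, both *fbn2b* rows and *adamtsl2*, whose groups overlap, also kept their direction in every alternative that held them. With 1 library left out, *fbn1* (−0.10 to 0.48) and *mfap2* (−0.17 to 0.20) changed sign. So did *mfap5* (−0.052 to 0.58) and the shorter *ltbp1* row (−0.29 to 0.26). In each alternative, 1 member row was called. That row, *cilp*, was chosen for this call in the same libraries, so the repeated call carries no separate weight. Over all genes, 7 were called, and 5 to 43 with 1 library left out (43 without WT replicate 2 and 11 without WT replicate 1). The replicate block called 15. Taken over all tested genes, same-numbered libraries did not deviate together (correlations of −0.022 to 0.022), so the numbers were not used as pairs. Such correlations do not cover small sets of genes, and the cartilage sums and *emilin3a* were highest in replicate 1 of each group. No gene of the pathway list was called under any alternative. Single differences in that list were followed only for the most highly counted gene of each class. Some of these uncalled genes changed sign with a library left out, and the cause was not tested: *fbn2a* (−0.23 to 0.13, above 0 without mutant replicate 2, at 0.088, or WT replicate 1), LTBP4 (−0.079 to 0.14, below 0 without mutant replicate 2, at −0.061, or WT replicate 2) and ADAMTSL5 (−0.035 to 0.39, below 0 without WT replicate 2). Rounding and low values limit *adamtsl2*, *mfap5*, *cilp2* and the shorter *ltbp1* row most.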

Other observations

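In the pathway list, *emilin3a* varied widely between libraries of the same group. This relative of the elastin-associated emilins stood at 46, 17 and 12 in mutant hearts, against 39, 6 and 4 in WT hearts, with replicate 1 the highest library in each group. The cartilage sums were also highest in replicate 1 of each group, at 11338 in mutant and 13451 in WT hearts, and their part in the *emilin3a* values was not tested. The gene was singled out after its values were seen, and its log2 difference of 0.99 (SE 0.680, limma adjusted p = 0.857) did not pass.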
